A study of Mus musculus with 46 samples.

Results

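The subunits of the proteasome were followed in mouse left ventricle before and after a myocardial infarction, on Affymetrix MOE430A arrays, which read each transcript with 1 or more probe sets. The members were all probe sets whose single gene symbol on the platform starts with Psma, Psmb, Psmc, Psmd, Psme or Psmg. The rule found 81 of 22626 probe sets, for 47 of the 12393 genes that a probe set names alone, and 20 of the 47 had more than 1 probe set. The genes Psmb8, Psmb9, Psmb10 and Psme1, each with 1 probe set, were kept apart as the inducible subunits, and the other 77 probe sets belonged to the remaining genes. Psme2, the partner of Psme1, shares its probe set with Psme2b and was not analysed here. Psmc3ip and Psme3ip1 are included by name but encode proteins that bind a subunit and are not subunits themselves.

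Male mice of the strains C57BL/6J (C57) and MRL/MpJ (MRL), the latter known for closing ear punches, were 15 to 20 weeks old. The left coronary artery was tied, and hearts were taken 1 or 5 days later. Day 0 hearts were healthy and unoperated, so the operation itself has no control of its own here. A biopsy punch separated the infarct with its border from the rest of the left ventricle, called noninfarct tissue, and at day 0 the infarct label stands for the anterior and apical region that would have been affected. Both strains, both regions and the 3 times gave 12 groups and 46 arrays, with 4 arrays in each group except the 2 C57 day 0 groups, which had 3. The tissue was not sorted, and the arrays of the 2 regions are not paired by heart in the labels.

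The proteasome degrades proteins marked with ubiquitin. Its 20S core is a barrel of alpha rings, which form the gate, around beta rings, which carry the cutting sites; the 19S cap recognises ubiquitin, unfolds the substrate with a ring of ATPases and feeds it into the core. Interferon gamma induces Psmb8, Psmb9 and Psmb10, which replace the standard catalytic subunits Psmb5, Psmb6 and Psmb7 in newly built cores to form the immunoproteasome, and the ring-shaped activator made of Psme1 and Psme2. Leukocytes express the immunoproteasome constitutively, and its peptides are loaded on MHC class I molecules. Heart muscle cells rely largely on the standard form.

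Psmb8 and Psmb9 lie next to the peptide transporter genes Tap1 and Tap2 in the MHC. Their promoters are shown because both genes read higher at day 5 in each strain. They are the 250 bases before the transcription start, 5′ to 3′ on the gene's strand, from RefSeq on GRCm38.p6, at chr17:34197945-34198194 on the plus strand for Psmb8 and chr17:34187331-34187580 on the minus strand for Psmb9; capitals mark the motif matches.
Psmb8: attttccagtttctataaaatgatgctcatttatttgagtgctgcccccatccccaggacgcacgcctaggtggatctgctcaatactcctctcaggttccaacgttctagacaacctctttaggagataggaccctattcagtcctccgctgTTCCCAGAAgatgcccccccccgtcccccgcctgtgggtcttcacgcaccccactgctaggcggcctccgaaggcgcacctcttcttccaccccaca
Psmb9: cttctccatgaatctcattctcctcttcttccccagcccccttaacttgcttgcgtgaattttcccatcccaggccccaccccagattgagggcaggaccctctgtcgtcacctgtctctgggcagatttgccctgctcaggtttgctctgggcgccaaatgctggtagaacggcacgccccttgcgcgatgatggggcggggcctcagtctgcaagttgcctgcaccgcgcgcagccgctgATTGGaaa
The capitals in Psmb8 are a gamma-activated site of the form TTCNNNGAA, 97 to 89 bases before the start. Those in Psmb9 are a CCAAT box read on the other strand, 8 to 4 bases before the start. Both strands were searched in the 39 of 47 member genes that have a promoter entry. TTCNNNGAA was in 1 of the 4 inducible promoters, 1 of the 35 others and 7.02% of all 32851 promoters of that length. The core of the interferon-stimulated response element, GAAA and GAAA with any 2 bases between, was in 0 of 4, 3 of 35 and 2.98%. CCAAT was in 1 of 4, 14 of 35 and 33.8%, and the core of the antioxidant response element, TGACNNNGC, in 0 of 4, 5 of 35 and 10.2%. The motifs do not overlap in these promoters, and a match describes the letters only.

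Levels are log2 of the deposited intensity, and levels of different probe sets are not compared as amounts. A probe set was tested in a region if it lay above its array's median on at least 3 arrays. That kept 69 member probe sets for 45 genes among 12834 in infarct tissue, and 67 for 43 genes among 12343 in noninfarct tissue. Psmb9 was tested in infarct tissue only, where it lay above the array median on 4 of 4 C57 and 2 of 4 MRL day 5 arrays, on 1 MRL day 1 array and on no other. It passed the filter mainly through the group where it was high, so its values are given as a description. Psma8, a subunit of the testis, and Psmg4 were tested in neither region. Changes are differences of group means in log2 ± SE. They are called at an adjusted p of 0.05 by limma with Benjamini-Hochberg adjustment over all tested probe sets. Where a gene had several probe sets, the one with the highest mean stands for it.

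Of the 46 arrays, 2 went against their labels. Over the other 44 arrays, 38 probe sets separated the strains without overlap. The library labelled MRL infarct day 5 replicate 3 lay on the C57 side for 38 of 38, and the library labelled C57 noninfarct day 5 replicate 3 on the MRL side for 35 of 38. Each of the other arrays, checked in the same way against 38 or more probe sets, lay on the other strain's side for at most 6. The summed intensity of 12 leukocyte markers, among them Ptprc and Cd68, was 5128 in the first of these libraries, against 30580 to 34906 in the other MRL infarct day 5 arrays. In the second it was 25083, against 3446 to 10933 in the other C57 noninfarct day 5 arrays. Both libraries were kept under their labels, and most of the called day 5 member changes in their groups are given with and without them.

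Psmb8 rose in infarct tissue at day 5 in both strains, 3.80-fold in C57 and 3.41-fold in MRL, and at day 1 it did not pass the test in either strain. Psmb9 read higher at day 5 as well, but was too dim for a fold. Psmb10 fell in C57 at day 1 and was back above its day 0 values at day 5, while Psme1 fell at both times in both strains. At day 5, 23.4% of all tested probe sets were called higher and 19.3% lower in C57, and 23.6% and 23.4% in MRL.

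Psmb8 replaces the chymotrypsin-like subunit Psmb5. In C57 infarct tissue its levels were 5.66, 5.96 and 6.35 at day 0, 5.43, 6.02, 6.88 and 6.07 at day 1, and 7.15, 8.18, 8.11 and 8.22 at day 5. The 4 day 5 arrays all lay above every earlier array, and replicate 1 was the lowest of them. The change was +1.93 ± 0.32 (adjusted p = 0.000119, limma). In MRL the levels were 5.61, 5.63, 5.41 and 5.84 at day 0, 6.90, 6.04, 6.04 and 6.33 at day 1, and 7.06, 7.98, 7.23 and 7.30 at day 5. No MRL day 5 array overlapped the earlier ones, and the change was +1.77 ± 0.29 (adjusted p = 9.29e-05, limma). Without the 2 libraries it was +1.82 and still called. At day 1 the MRL arrays all lay above those of day 0, but the change of +0.71 ± 0.29 did not pass the test (adjusted p = 0.0876, limma), and in C57 it was +0.11 ± 0.32.

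Psmb9 replaces the caspase-like subunit Psmb6 and was dim. Its C57 infarct levels were 3.27, 3.25 and 4.08 at day 0, 3.00, 2.89, 2.95 and 2.71 at day 1, and 4.39, 4.75, 5.10 and 5.12 at day 5. In MRL they were 3.15, 2.63, 2.75 and 3.20 at day 0, 4.35, 2.68, 3.25 and 2.97 at day 1, and 4.25, 4.57, 3.78 and 5.10 at day 5. The array medians lay between 4.22 and 4.49, so the day 0 and most day 1 values of Psmb9 were below the middle of the array. The lowest MRL day 5 value, 3.78, was the library labelled MRL infarct day 5 replicate 3. The changes from day 0 to day 5 were +1.31 ± 0.34 in C57 and +1.49 ± 0.31 in MRL, the latter +1.71 without the 2 libraries. Both were past the threshold in the limma fit without any filter on dim probe sets. With 32 added to every intensity before the log, which damps dim values, the changes were +0.47 and +0.45, so the size depends on that choice.

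Psmb10 replaces the trypsin-like subunit Psmb7. In C57 infarct tissue its levels were 7.72, 7.86 and 7.71 at day 0, 6.41, 5.98, 7.20 and 6.88 at day 1, and 8.20, 8.32, 8.62 and 8.28 at day 5. The 3 times did not overlap. The fall at day 1 was called (-1.15 ± 0.27, adjusted p = 0.00722, limma), as was the rise from day 1 to day 5 (+1.74 ± 0.25, adjusted p = 3.36e-05, limma). The net difference between day 5 and day 0, +0.59 ± 0.27, did not pass (adjusted p = 0.0846, limma). MRL levels were 8.17, 7.10, 7.53 and 7.62 at day 0, 8.11, 7.55, 7.13 and 7.44 at day 1, and 7.75, 8.31, 7.94 and 8.02 at day 5. These overlapped, and the changes of -0.05 ± 0.25 at day 1 and +0.40 ± 0.25 at day 5 were not called.

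Psme1, a subunit of the activator ring, went the other way. Its C57 infarct levels were 10.54, 10.81 and 10.54 at day 0, 10.22, 10.22, 9.66 and 9.62 at day 1, and 9.81, 9.69, 10.21 and 10.03 at day 5. In MRL they were 10.61, 10.70, 10.52 and 10.71 at day 0, 10.15, 9.71, 10.05 and 10.09 at day 1, and 9.74, 9.76, 10.53 and 9.94 at day 5. Only the library labelled MRL infarct day 5 replicate 3, at 10.53, reached the day 0 range. The falls were -0.70 ± 0.21 in C57 at day 1 (adjusted p = 0.0253, limma) and -0.70 ± 0.21 at day 5 (adjusted p = 0.0108, limma). In MRL they were -0.63 ± 0.19 (adjusted p = 0.0241, limma) and -0.64 ± 0.19 (adjusted p = 0.00964, limma), the last -0.82 without the 2 libraries. The C57 day 1 call was lost without any one of the 3 day 0 arrays or of day 1 replicates 3 and 4 (adjusted p up to 0.118), and the C57 day 5 call without day 0 replicate 2 (0.0543). The MRL day 1 call was lost without any one of day 0 replicates 1, 2 and 4 or day 1 replicate 2 (up to 0.0907).

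**Figure D1:**
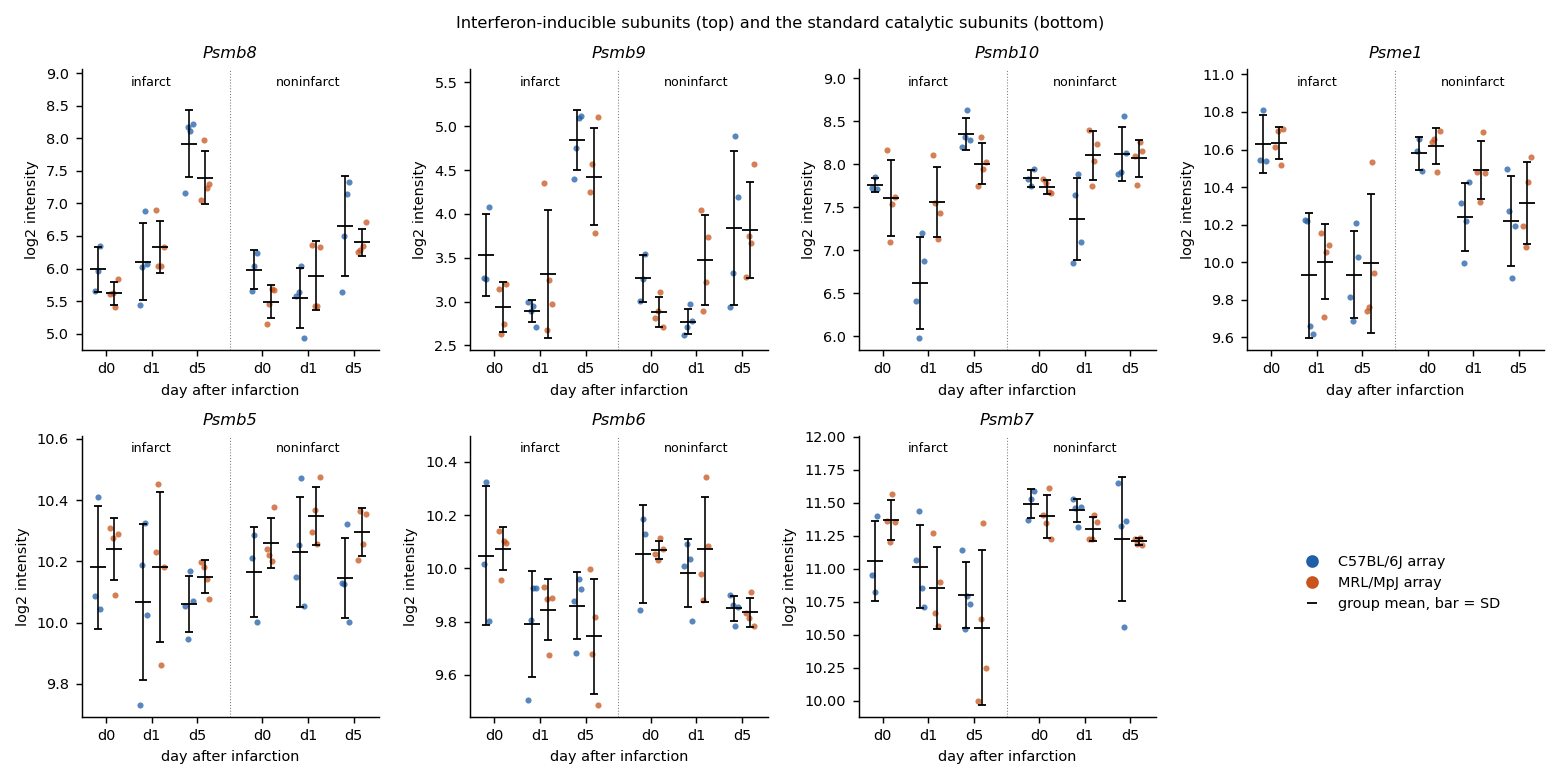
Log2 intensity of the inducible subunits Psmb8, Psmb9, Psmb10 and Psme1 and the standard catalytic subunits Psmb5, Psmb6 and Psmb7; each point is 1 array, the bars are the group mean ± SD, and the 12 groups run along the horizontal axis. The day 5 infarct arrays of Psmb8 lie at 7.06 to 8.22, above all day 0 infarct arrays at 5.41 to 6.35, while Psmb5 stays between 9.73 and 10.45 in infarct tissue.

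Of the standard counterparts, Psmb7 in MRL was the one called. Psmb5 lay between 9.73 and 10.45 on all infarct arrays, and its changes ran from -0.12 ± 0.16 to -0.06 ± 0.15 over the 4 comparisons with day 0. Psmb6 changed by -0.33 ± 0.15 in MRL at day 5 (adjusted p = 0.0786, limma) and by less elsewhere. The MRL infarct levels of Psmb7 were 11.36, 11.20, 11.57 and 11.35 at day 0 and 10.00, 10.62, 11.35 and 10.25 at day 5. It fell by 0.82 ± 0.25 on the log2 scale (adjusted p = 0.00975, limma); the array inside the day 0 range, at 11.35, was again the library labelled MRL infarct day 5 replicate 3, and without the 2 libraries the fall was -1.08. At day 1 in MRL the change of -0.52 ± 0.25 did not pass (adjusted p = 0.133, limma), and in C57 Psmb7 changed by -0.26 ± 0.27 at day 5.

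The log2 level of each standard subunit was subtracted from that of its inducible counterpart on each array. Since probe sets differ in brightness, a shift of this difference between times shows unequal change and not a ratio of amounts. The difference between Psmb8 and Psmb5 moved up by 2.05 in C57 and 1.86 in MRL from day 0 to day 5 (exact permutation test, two-sided, p = 0.0286 for each), and by 0.77 in MRL at day 1 (exact p = 0.0286). For Psmb9 against Psmb6 the day 5 shifts, given as a description, were 1.49 and 1.82, or 0.65 and 0.77 with 32 added to the intensities. For Psmb10 against Psmb7 they were 0.85 and 1.22 (exact p = 0.0571 for each). The other day 1 shifts went both ways. For Psmb8 against Psmb5 the shift in C57 was +0.23 (exact p = 0.429). For Psmb10 against Psmb7 it was -1.10 in C57 (exact p = 0.143) and +0.47 in MRL (exact p = 0.0857). For Psmb9 against Psmb6, as a description, it was -0.39 in C57 and +0.61 in MRL. The MRL day 5 shifts were 1.91 for Psmb8, 2.06 for Psmb9 and 1.51 for Psmb10 when the 2 libraries were left out. The smallest p that these groups of 3 or 4 arrays allow is 0.0286. After adjustment over the 12 tests the lowest value was 0.0686, so none passed.

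Leukocyte markers were higher in infarct tissue at day 5 and in part at day 1. At day 1, when Psmb8 was not called in either strain, 6 of 12 were higher in C57 (median change +2.06) and 9 of 12 in MRL (+2.42). Without the 2 libraries these day 1 counts were 9 in C57 and 10 in MRL. All 12 were called higher at day 5 in infarct tissue of both strains. Their summed intensity was 1426 to 1891 in C57 at day 0 and 13989 to 30216 at day 5, and 889 to 1271 in MRL at day 0 and 5128 to 34906 at day 5. The C57 day 5 array with the lowest sum, replicate 1, was also the lowest in Psmb8. The library labelled MRL infarct day 5 replicate 3, with a sum of 5128, had a Psmb8 level of 7.23, inside the range of the other 3 arrays, 7.06 to 7.98. Of 9 markers of T and NK lymphocytes only Cd4 was bright enough to test, and its intensity lay near the array medians or below them. At day 5 it changed by -0.31 in C57, not called, and by -0.41 in MRL, called. Without the 2 libraries the MRL change of Cd4 was -0.39 and was not called. At day 1 the sums were 1420, 1724, 8546 and 4112 in C57, and the array with 8546, replicate 3, had the highest day 1 level of Psmb8, 6.88. In MRL they were 4152, 7875, 2232 and 3354, and the array with 7875 had a Psmb8 level of 6.04, below the highest, 6.90. Fibroblast markers rose at day 5 too, 7 of 7 tested in each strain (median changes +3.54 and +3.53), with 2 higher in C57 and 1 higher and 1 lower in MRL at day 1. Their summed intensity was 5830 to 7526 in C57 at day 0 and 56994 to 76492 at day 5, and 7415 to 9577 and 35562 to 77587 in MRL. In whole tissue a change in cell number and a change in RNA per cell cannot be told apart, and the part of leukocytes or fibroblasts in these results was not tested.

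**Figure D2:**
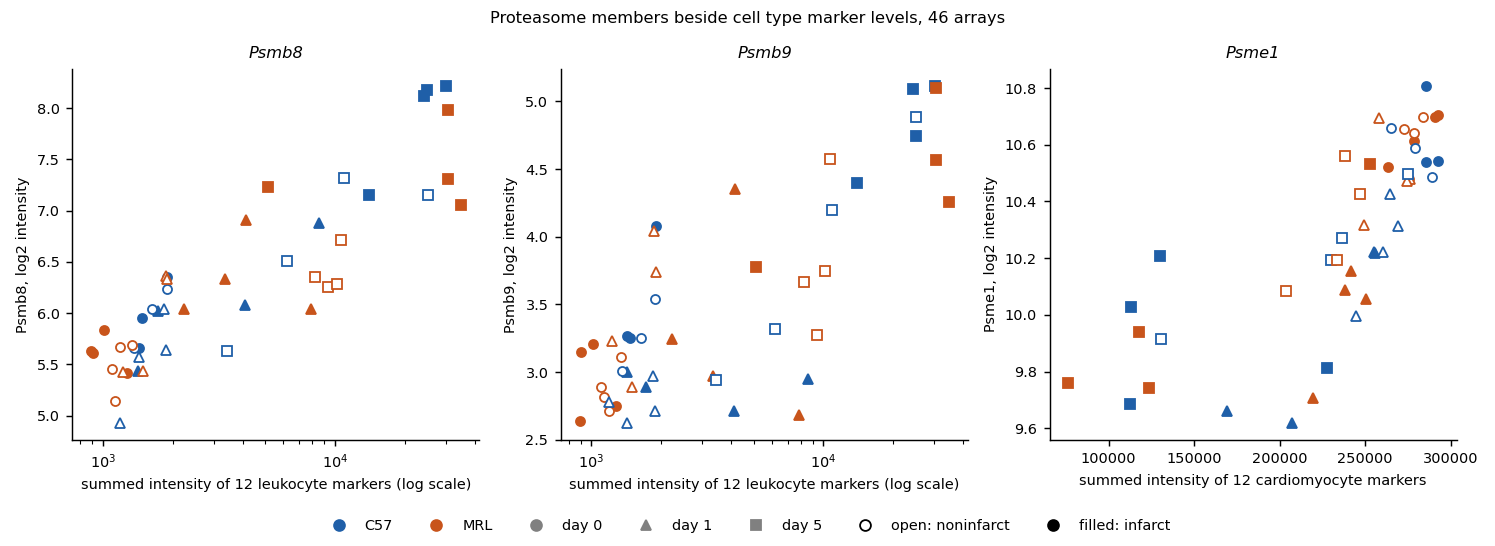
Log2 intensity of Psmb8 and Psmb9 against the summed intensity of 12 leukocyte markers (log axis), and of Psme1 against that of 12 cardiomyocyte markers; each point is 1 of the 46 arrays, with colour for strain, shape for day and filled points for infarct tissue. The C57 day 5 infarct arrays have leukocyte sums of 13989 to 30216 and Psmb8 levels of 7.15 to 8.22, against 1426 to 1891 and 5.66 to 6.35 at day 0.

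Of 20 listed MHC class I and interferon genes, 15 were tested. In infarct tissue at day 5, 8 were higher and 1 lower in each strain, against 23.4% of all tested higher and 19.3% lower in C57 and 23.6% and 23.4% in MRL, with a median change of +0.72 in C57 and +0.69 in MRL. B2m, the light chain of class I, rose by 1.28 and 1.50, the peptide-loading chaperone Pdia3 by 1.80 and 1.64, and the tapasin gene Tapbp by 1.13 and 0.54. Irf8, a transcription factor of myeloid cells, had the widest change, +3.46 and +3.19. Ifngr2, a chain of the interferon gamma receptor, was the member that fell, by 1.13 and 1.06. At day 1 the list showed 1 higher and 2 lower in C57 and 0 higher and 1 lower in MRL. Irf1, a transcription factor downstream of that receptor, changed by +0.25 and +0.41 at day 5 and was not called. Class I heavy chains vary in sequence between mouse strains, so H2-D1 and H2-K1 are not compared between strains.

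At day 1 the share of members called higher was near that of all probe sets. In C57 infarct tissue 8 member probe sets of 69 were higher and 2 lower, against 9.39% and 6.16% of all tested. In MRL it was 5 and 4, against 10.4% and 11.1%. The higher members made 11.6% of those tested in C57 and 7.25% in MRL. By gene, 2 of 7 alpha subunits, 2 of 11 non-ATPase cap subunits and 1 of 3 cap chaperones were higher in C57, and none of the 7 standard beta subunits or 6 ATPases. The median change was +0.21 over the C57 members and +0.02 over all probe sets, and +0.02 and -0.00 in MRL.

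Psmd11, a scaffold subunit of the 19S lid known to promote assembly of the full proteasome, rose most clearly. Its C57 infarct levels were 10.11, 10.02 and 10.25 at day 0, 11.16, 11.65, 11.78 and 11.83 at day 1, and 10.12, 10.64, 10.48 and 10.44 at day 5. In MRL they were 10.17, 10.06, 10.16 and 10.29, then 11.22, 11.82, 11.25 and 11.55, then 9.96, 10.74, 10.56 and 10.41. Every day 1 array lay above every array of the other times. The day 1 changes were +1.48 ± 0.20 in C57 (adjusted p = 4.83e-05, limma) and +1.29 ± 0.19 in MRL (adjusted p = 8.68e-05, limma). Of its other tested probe sets 2 were called higher in both strains, at +1.92 and +1.05 in C57 and +1.35 and +0.50 in MRL. From day 1 to day 5 Psmd11 fell by 1.18 in C57 and 1.04 in MRL, both called.

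Psma3, an alpha ring subunit, rose in both strains. Its levels went from 10.40, 10.05 and 10.26 to 10.51, 10.78, 11.19 and 11.22 in C57, and from 10.06, 9.89, 10.10 and 10.15 to 10.68, 10.96, 10.74 and 10.72 in MRL. The groups did not overlap, and the changes were +0.69 ± 0.20 (adjusted p = 0.0224, limma) and +0.72 ± 0.18 (adjusted p = 0.00921, limma). Psma5, another alpha subunit, went from 7.96, 8.74 and 8.54 to 8.99, 9.48, 10.02 and 9.93 in C57, a change of +1.19 ± 0.25 (adjusted p = 0.00231, limma). In MRL it had 8.72 to 9.11 at day 0 and 9.37 to 9.75 at day 1 and was not called. Psmd4, a ubiquitin receptor of the cap, changed by +0.58 ± 0.18 in C57 with overlapping groups (adjusted p = 0.0344, limma).

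Psmd5, a chaperone that holds part of the cap's ATPase ring during assembly, rose in C57 at both times. Its levels were 4.95, 5.15 and 5.64 at day 0, 5.23, 6.87, 7.30 and 6.92 at day 1, and 6.41, 6.39, 7.06 and 6.66 at day 5. Replicate 1 at day 1 stayed within the day 0 range. The changes were +1.33 ± 0.35 (adjusted p = 0.0136, limma) and +1.38 ± 0.35 (adjusted p = 0.00395, limma). The day 1 call was lost without any one of day 0 replicates 1 and 2 or day 1 replicate 3 (adjusted p up to 0.0664). In MRL Psmd5 rose at day 5, from 5.56, 5.61, 5.79 and 6.07 to 6.38, 6.98, 6.30 and 6.58, by 0.80 ± 0.33 (adjusted p = 0.0493, limma), or +0.89 without the 2 libraries. That call was lost without any one array except day 0 replicate 4 and the library labelled day 5 replicate 3 (adjusted p from 0.0407 to 0.142).

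**Figure D3:**
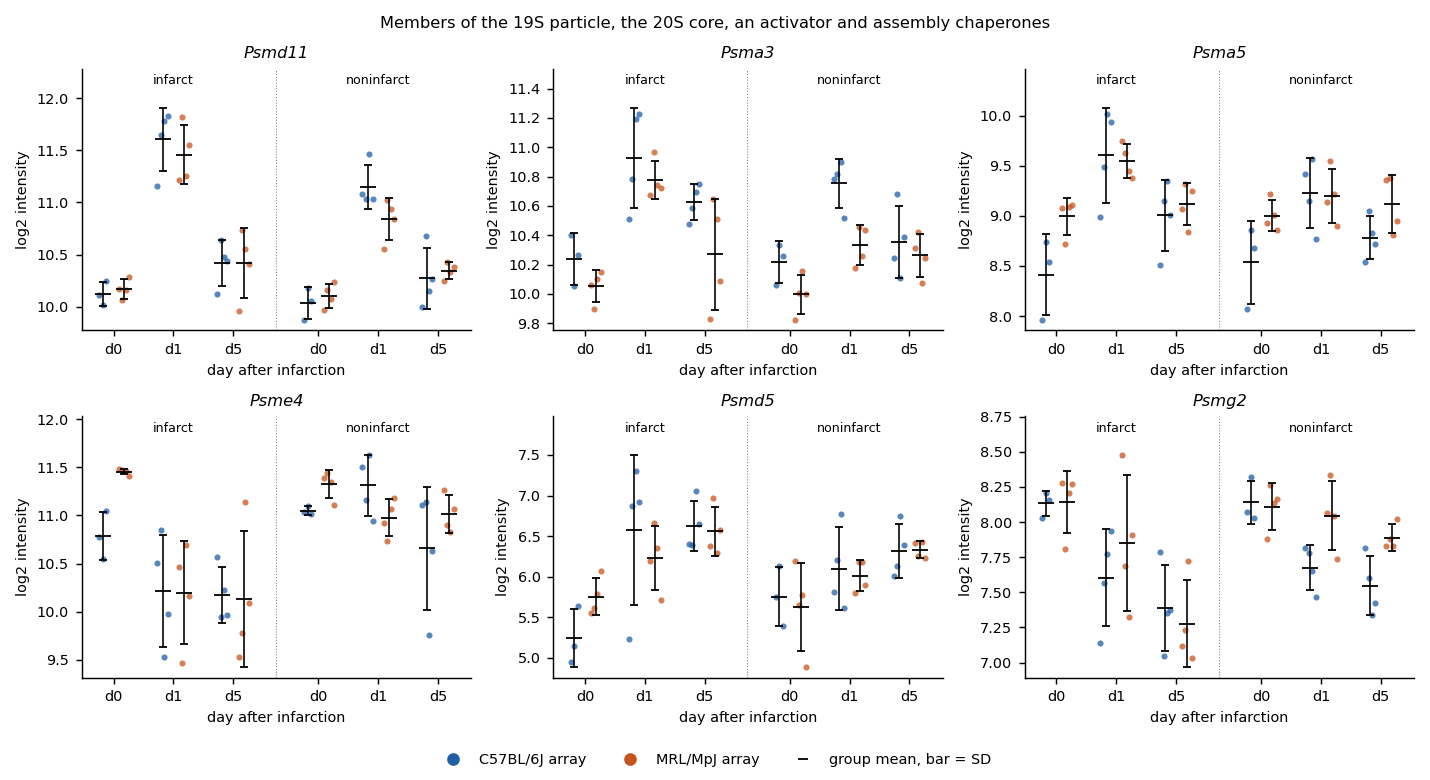
Log2 intensity of Psmd11, Psma3, Psma5, Psme4, Psmd5 and Psmg2 on each array of the 12 groups, with the group mean ± SD. Psmd11 lies at 11.16 to 11.83 on the 8 day 1 infarct arrays and at 9.96 to 10.74 on the day 0 and day 5 infarct arrays.

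By day 5 more members were lower than higher in MRL. In MRL infarct tissue 3 member probe sets were higher and 18 lower, against 23.6% and 23.4% of all tested. Without the 2 libraries it was 4 and 19, against 26.6% and 26%. In C57 it was 5 and 5, against 23.4% and 19.3%. The counts of higher members include Psmb9, which passed the filter mainly through the group where it was high. As shares, 26.1% of MRL member probe sets were lower, close to the background, and 4.35% higher, well under it. The median change over members was -0.28 in MRL and -0.11 in C57, and over all probe sets -0.05 and -0.00. By gene, the MRL falls took in 3 of 6 ATPases, 4 of 11 non-ATPase cap subunits, 1 of 7 alpha and 1 of 7 standard beta subunits, 1 of 3 core chaperones and both other activators.

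Psme4, an activator that caps the core without ATP and is known for opening it to acetylated histones, fell in MRL at both times. Its MRL infarct levels were 11.48, 11.47, 11.46 and 11.41 at day 0, 10.47, 9.46, 10.69 and 10.17 at day 1, and 9.53, 9.78, 11.14 and 10.10 at day 5. All later arrays lay below day 0, and the nearest, at 11.14, was the library labelled MRL infarct day 5 replicate 3. The changes were -1.26 ± 0.32 at day 1 (adjusted p = 0.0088, limma) and -1.32 ± 0.32 at day 5 (adjusted p = 0.00209, limma), the latter -1.65 without the 2 libraries. Its other 2 probe sets were called lower as well, at -1.60 and -1.14 at day 1 and -1.70 and -1.36 at day 5. In C57 Psme4 had 10.78, 10.54 and 11.04 at day 0, 10.50, 10.85, 9.53 and 9.97 at day 1, and 10.56, 9.94, 10.23 and 9.96 at day 5, and neither change was called.

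Psmg2, a chaperone of alpha ring assembly, fell at day 5 in both strains. It went from 8.03, 8.21 and 8.16 to 7.79, 7.04, 7.35 and 7.37 in C57, and from 8.28, 7.81, 8.20 and 8.27 to 7.12, 7.23, 7.72 and 7.03 in MRL. The day 5 arrays lay below day 0 in each strain. The changes were -0.74 ± 0.25 (adjusted p = 0.0216, limma) and -0.86 ± 0.23 (adjusted p = 0.00457, limma), the latter -1.01 without the 2 libraries, and its second probe set was called lower too. In C57 the call was lost without any one of day 0 replicates 2 and 3 or day 5 replicate 2 (adjusted p up to 0.0727). Psme3, the nuclear activator, fell in MRL from 7.39, 7.17, 7.08 and 7.39 to 6.20, 6.48, 7.31 and 6.00, by 0.76 ± 0.28 (adjusted p = 0.0312, limma). The other tested probe sets of Psme3 were not called. The array at 7.31 is the library labelled MRL infarct day 5 replicate 3, and without the 2 libraries the change was -1.03. With every label kept, the call was lost without any one of MRL day 0 replicates 1 and 4 or day 5 replicates 1, 2 and 4 (adjusted p up to 0.116).

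Other cap subunits moved less. In C57 at day 5 Psmd12, a lid scaffold, fell by 0.59 ± 0.20 (adjusted p = 0.0253, limma), and Psmd13, another lid subunit, rose by 0.68 ± 0.23 (adjusted p = 0.0228, limma). The second tested probe set of Psmd13 was not called. The Psmd12 call was lost without any one of day 0 replicates 1 and 2 or day 5 replicates 2, 3 and 4 (adjusted p up to 0.0766), and the Psmd13 call without any one of day 0 replicate 1 or day 5 replicates 2 and 3 (up to 0.141). In MRL the ATPases Psmc6, Psmc1 and Psmc3 changed by -0.69, -0.52 and -0.46, all called. The called cap subunits there were Psmd7, Psmd6, Psmd12 and Psmd1, at -0.58, -0.58, -0.54 and -0.45, and the alpha subunit was Psma1, at -0.50. With the 2 libraries left out, the ATPases changed by -0.84, -0.58 and -0.52, the cap subunits by -0.70, -0.67, -0.72 and -0.59 and Psma1 by -0.64, each still called.

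Cardiomyocyte markers fell beside these. Of 12, among them Myh6 and Tnnt2, 10 were lower in C57 and 11 in MRL infarct tissue at day 5. The median changes were -1.23 and -1.41. At day 1 they were -0.36 and -0.23, and none was called, though 2 were lower in C57 without the 2 libraries. The summed intensity of the markers in C57 was 285320 to 292450 at day 0, 169030 to 255880 at day 1 and 112520 to 227820 at day 5. In MRL it was 263240 to 292620 at day 0, 219570 to 250480 at day 1 and 76390 to 123500 at day 5 in 3 arrays. In the library labelled MRL infarct day 5 replicate 3 it was 253060, and that array also had the highest day 5 level of Psme1, Psme4, Psmb7, Psmg2 and Psme3. Without that library and its counterpart in noninfarct tissue, 11 markers were still lower in MRL (median -1.86). In C57 infarct tissue at day 5, replicate 1 had the highest sum, 227820, against 112520 to 129990 in the other arrays. That array had the highest level of Psme4 and Psmg2 in its group, while its Psme1 level lay inside the range of the others. The Gapdh probe set at the 3′ end minus the one at the 5′ end, a sign of RNA quality, was -0.28 to -0.18 in log2 in MRL infarct tissue at day 0 and -0.13 to -0.0014 at day 5, and in C57 -0.22 to -0.14 and -0.08 to 0.73. At day 1 this Gapdh difference was -0.26 to 0.38 in MRL infarct tissue and -0.19 to 0.41 in C57. The part of muscle loss or of RNA quality in the falls was not tested.

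**Figure D4:**
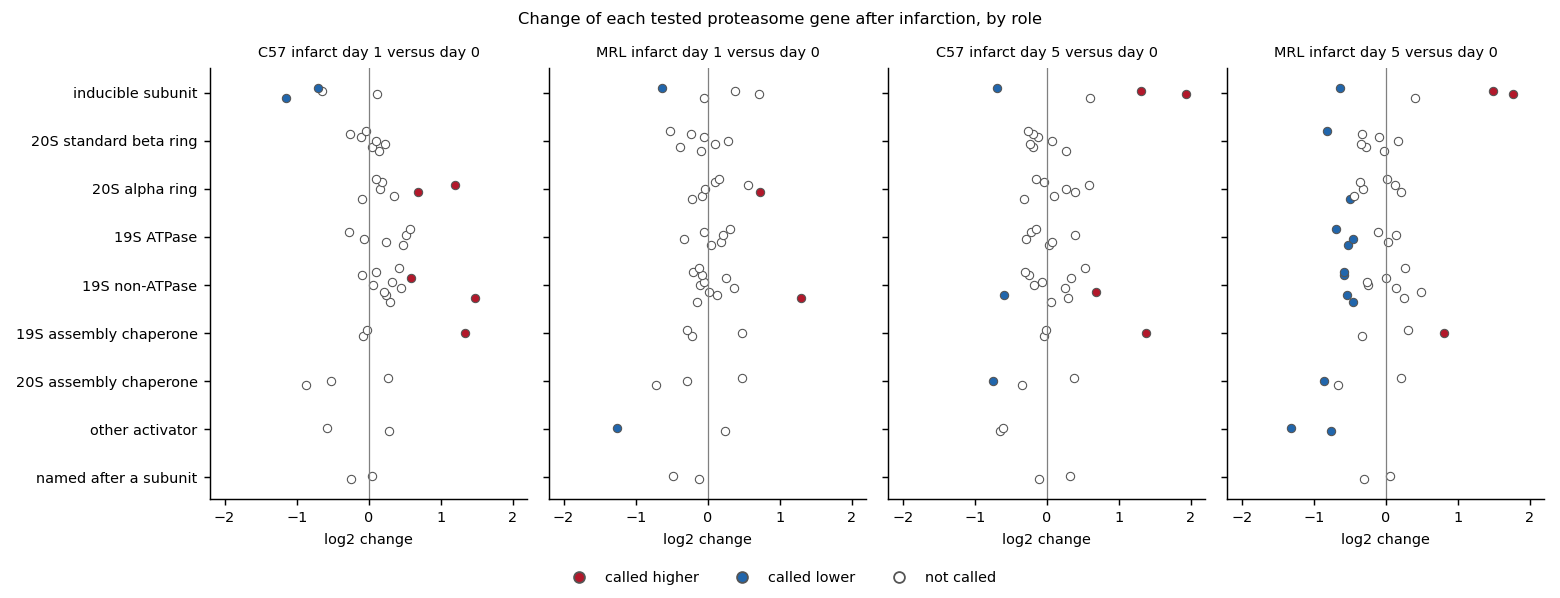
Log2 change from day 0 of every tested member gene, by its role in the proteasome, in the 4 comparisons of infarct tissue; filled points were called by limma at an adjusted p of 0.05. Psmd11 stands at +1.48 and +1.29 at day 1, and Psmb8 at +1.93 and +1.77 at day 5.

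From day 1 to day 5 the inducible subunits did not all move one way. Psmb8 and Psmb9 read higher in both strains and Psmb10 in C57, while Psme1 changed by +0.0040 and -0.0077. In C57 infarct tissue 3 member probe sets were higher, those of Psmb8, Psmb9 and Psmb10, and 16 lower, against 18.5% and 15.7% of all tested. In MRL 3 were higher, those of Psmb8, Psmb9 and Psmd9, and 13 lower, against 16.3% and 13.8%. Without the 2 libraries MRL had 3 and 21, against 21.1% and 20.3%. Of 41 other member genes, 0 were higher and 5 lower in C57, and 1 and 6 in MRL. Psmb8 rose by 1.81 in C57 and 1.06 ± 0.29 in MRL (adjusted p = 0.0115, limma), the latter +1.12 without the 2 libraries. The MRL call was lost without day 5 replicate 2 (limma, adjusted p = 0.0507). For Psmb9, again as a description, the changes were +1.95 in C57 and +1.11 ± 0.31 in MRL, the latter +1.33 without the 2 libraries. Psmb9 is counted among the higher members here, although it passed the filter mainly through the group where it was high. Psmc6, an ATPase, fell by 0.72 in C57 and 1.00 in MRL. Psme3 fell by 0.93 ± 0.28 in C57 and 1.00 ± 0.28 in MRL, and its other tested probe sets were not called in either strain. The C57 call of Psme3 was lost without day 5 replicate 2 or day 1 replicate 4 (limma, adjusted p up to 0.068). The MRL call was lost without day 5 replicate 4 (0.0538). The MRL changes without the 2 libraries were -1.15 for Psmc6, -1.27 for Psme3 and -1.09 for Psmd11. These 2 times share their arrays with the comparisons against day 0.

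Genes that work with the proteasome moved in small numbers. Of 28 listed, 19 were tested. At day 1 in infarct tissue, 2 were higher and 1 lower in C57 and 1 higher in MRL, against 9.39% and 6.16% of all tested in C57 and 10.4% and 11.1% in MRL. Zfand2a, a stress-induced protein that binds the cap, rose by 1.34 and 1.19. Nfe2l2, a transcription factor of the antioxidant response, rose by 1.08 in C57. At day 5, 1 was higher and 3 lower in C57 and 1 higher and 4 lower in MRL, against 23.4% and 19.3% and 23.6% and 23.4%. Ecpas, an adaptor that ties the core to the cap, fell by 1.15 and 1.53, and Nfe2l1, the factor that induces proteasome genes when degradation is blocked, by 0.88 and 0.72. Pomp, which is needed to assemble new cores, rose by 0.54 in C57.

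In noninfarct tissue the rise of Psmd11 at day 1 was seen as well. Its C57 levels were 9.88, 10.18 and 10.06 at day 0 and 11.08, 11.03, 11.46 and 11.03 at day 1, and its MRL levels 9.97, 10.16, 10.07 and 10.24, then 10.56, 11.02, 10.93 and 10.85. The groups did not overlap, and the changes were +1.11 ± 0.16 (adjusted p = 0.000487, limma) and +0.73 ± 0.14 (adjusted p = 0.0152, limma). The MRL call was lost without any one of day 0 replicate 1 or day 1 replicates 2 and 3 (adjusted p up to 0.0706). In all, 6 member probe sets were higher and 0 lower in C57, against 2.71% and 1.27% of all tested, and 2 and 0 in MRL, against 0.786% and 0.194%, both of them Psmd11. The other C57 calls were Psmd4 (+0.60), Psma3 (+0.54) and the second probe set of Psma5 (+0.82). The call of Psmd4 was lost without any one of the day 0 arrays or of day 1 replicates 1 and 3 (adjusted p up to 0.155), and that of Psma3 without any one array except day 1 replicate 4 (up to 0.186). None of the 12 leukocyte markers was called in either strain at that time, with median changes of +0.59 in C57 and +0.69 in MRL. Without the 2 libraries, 2 of the 12 were called higher in MRL. Of 6 neutrophil markers 3 were tested, and 2 of them were higher at day 1 in both regions and strains. The intensity summed over these 3 in noninfarct tissue at day 0 was 28.9 to 36.2 in C57 and 30.8 to 35.2 in MRL. With array medians of 18.6 to 22.4, they passed the filter mainly through the groups where they were high. The count is given as a description, and the part of neutrophils in the changes was not tested.

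At day 5 in noninfarct tissue Psmb8 had levels of 5.15, 5.46, 5.69 and 5.67 at day 0 and 6.25, 6.29, 6.35 and 6.71 at day 5 in MRL. These did not overlap, and the rise of 0.91 ± 0.31 was called (adjusted p = 0.0388, limma). The call was lost when any one of the 8 arrays was left out (adjusted p from 0.0525 to 0.108). In C57 the levels were 5.66, 6.04 and 6.24 at day 0 and 5.63, 6.51, 7.15 and 7.32 at day 5, where 7.15 is the library labelled C57 noninfarct day 5 replicate 3. The change of +0.67 ± 0.34 did not pass, with or without that library, though it did without day 5 replicate 1 (+1.01, adjusted p = 0.0111, limma). Leukocyte markers were called higher here too, 11 of 12 in C57 and 12 of 12 in MRL.

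In MRL noninfarct tissue at day 5, 3 member probe sets were higher and 3 lower, against 16% and 8.17% of all tested. The higher ones were Psmb8, Psmd13 (+0.50) and Psmd5 (+0.71); the Psmd5 call was lost without any one array except day 0 replicate 1 (adjusted p up to 0.182). In C57 it was 0 and 3, against 11.6% and 9.45%: Psmg2, Psma1 and the second probe set of Psmd6. Without the 2 libraries it was 0 and 1, against 6.88% and 3.22%, and the remaining one was Psmg2, at -0.53. With all arrays Psmg2 changed by -0.59 ± 0.15 (adjusted p = 0.0113, limma), a call lost without day 0 replicate 2 (0.0616). Psma1 changed by -0.54 ± 0.19, lost also without any one of the 3 day 0 arrays or of day 5 replicates 2 and 3 (adjusted p up to 0.19).

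Few members differed between the strains at the same time. In infarct tissue 0 of 69 probe sets were called at day 0, against 0.67% of all tested higher and 0.397% lower in MRL. At an unadjusted p under 0.05 it was 4, against 6.47%. At day 1 it was 0, against 0.366% and 0.631%, and 4 unadjusted, against 8.92%. At day 5 it was 0, against 0.179% and 0.506%, and 0 unadjusted, against 5.54%. Psmb10 was the widest of the inducible subunits at day 1, 0.94 ± 0.25 higher in MRL (adjusted p = 0.0923, limma). In noninfarct tissue at that time it was 6.85, 7.64, 7.88 and 7.09 in C57 and 8.40, 7.74, 8.03 and 8.24 in MRL, a difference of +0.74 ± 0.20 (adjusted p = 0.0503, limma) that was called without the 2 libraries.

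The strains' responses were compared by the difference of their changes from day 0, and no member was called. In infarct tissue 0 of 69 passed at day 1, against 0.0468% of all tested in either direction, and 3 at an unadjusted p under 0.05, against 3.72%. At day 5 it was 0, against 0.156%, and 1 unadjusted, against 3.45%. In noninfarct tissue 0 of 67 passed at day 1, against 0.0081%, with 3 unadjusted, against 3.35%, and at day 5 it was 0, against 0.0081%, with 0 unadjusted, against 1.84%. For Psmb8 the MRL change minus the C57 change in infarct tissue was +0.60 ± 0.43 at day 1 and -0.16 ± 0.43 at day 5. For Psmb10 it was +1.10 ± 0.37 at day 1 (adjusted p = 0.97, limma). The falls of Psme4 and Psmb7, called in MRL and not in C57, are therefore not shown to differ between strains.

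One of the 2 tested probe sets of Psmd6, a lid subunit, was the member that did differ, and it was singled out after its values were seen. In noninfarct tissue at day 0 it read 7.18, 6.55 and 8.01 in C57 and 5.83, 5.82, 5.91 and 6.11 in MRL. At day 1 it read 6.62, 6.93, 7.01 and 7.51 in C57 and 6.10, 5.81, 5.96 and 5.84 in MRL. The groups did not overlap, and MRL was lower by 1.33 ± 0.27 (adjusted p = 0.008, limma) and 1.09 ± 0.25 (adjusted p = 0.0175, limma). It was the single member called at each of these times, 0 higher and 1 lower, against 0.956% and 0.843% of all tested at day 0 and 1.43% and 1.34% at day 1. At day 5 in noninfarct tissue 0 of 67 members were called, against 0.859% and 0.389%, with 4 at an unadjusted p under 0.05, against 9.8%. The library labelled MRL infarct day 5 replicate 3 read 7.84 on this probe set, against 5.35 to 5.51 in the other MRL arrays of its group, and the library labelled C57 noninfarct day 5 replicate 3 read 5.76, against 6.46 to 6.78. With all arrays the differences in infarct tissue at days 1 and 5 and in noninfarct tissue at day 5 were -1.52 ± 0.40, -0.37 ± 0.40 and -0.87 ± 0.25, none called. Without the 2 libraries they were -1.52 ± 0.24, -0.98 ± 0.26 and -1.08 ± 0.24, each called. In infarct tissue at day 0 this probe set was not called, with or without the 2 libraries. The 2 libraries were set aside for lying on the other strain's side, as they do here. Leaving them out therefore favours such calls, which are no separate evidence. The other Psmd6 probe set differed between strains by -0.01 to +0.34 over the 6 comparisons, so the 2 probe sets disagree and the strain difference is one of that probe set and not of the gene as a whole.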

How the data were processed

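Total RNA from snap-frozen left ventricle was hybridised to Affymetrix MOE430A arrays, 1 per sample. The authors deposited a table of linear intensities, made with GCRMA (version not given in the sources used here) per the submitters' processing notes; the values ran from 1.03 to 54627.6. GCRMA corrects background by probe composition and normalises between arrays, so a shift shared by most transcripts would be removed.

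Of 22690 probe sets, 64 controls were left out. Log2 of the intensity was taken with no pseudocount. Arrays of each region (23) were fitted with 1 mean per group in limma 3.58.1 (R 4.3.3), for 20 comparisons over both regions. The limma fit was checked on simulated data with known changes. Of the 22690, 20380 have 1 symbol, 691 several and 1555 none; all 81 members matched RefSeq by Entrez ID.

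The members and gene lists were chosen with earlier results of these data known. Named were Psmb5 to Psmb10 and Psme1 always, up to 3 of the widest called rises and falls in each comparison, and other genes only from the 2 lists. Some cap, ATPase and alpha subunits called in MRL at day 5 and 1 Psmd6 probe set were added after their values were seen. The labels call each array of a group a biological replicate but do not name animals, so p-values measure the spread between these samples. Precision is limited by the number of arrays. Arrays with equal replicate numbers were compared between days and between strains within a region. In 0 of 16 comparisons did every pair correlate above 0.1 (range -0.44 to 0.47). Such groups hold different hearts, so this cannot show whether the numbers pair arrays. Infarct and noninfarct arrays were not compared in this way. Alternatives were no filter, quantile normalization, median centring, an offset of 32, a replicate block, leaving out the 2 libraries against their labels, and leaving out each array.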

Additional observations from a re-analysis of the deposited data

Results flagged for a closer look

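Among 200 groups of 4 arrays examined for the named members, 10 had 1 array whose gap to the nearest other array was a larger share of the group's range than Dixon's test allows for 4 arrays at the 95% level. Chance gives about 1 such group in 20. All values are log2 intensities.

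In C57 infarct tissue at day 5, replicate 1 was at 7.15 for Psmb8, against 8.11 to 8.22 in the other arrays, and at 9.24 for Psmd12, against 8.89 to 8.93. Replicate 2 of that group was at 6.13 for Psmd9, against 5.82 to 5.88. In C57 infarct tissue at day 1, replicate 1 was at 9.43 for Psmd12, against 9.91 to 10.01. In MRL infarct tissue at day 0, replicate 3 was at 10.09 for Psmb5, against 10.28 to 10.31, and replicate 2 was at 8.72 for Psma5, against 9.08 to 9.11, and at 7.81 for Psmg2, against 8.20 to 8.28.

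In C57 noninfarct tissue at day 1, replicate 3 was at 11.46 for Psmd11, against 11.03 to 11.08. The library labelled C57 noninfarct day 5 replicate 3 was at 8.90 for Psmd12, against 9.50 to 9.61. In MRL noninfarct tissue at day 1, replicate 2 was at 5.67 for Psmd9, against 5.90 to 5.91.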

How the results depend on the processing

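Of 160 values of named members, 154 to 158 were counted as unchanged under each of the 6 alternatives, and no called value changed direction. A called value counted as unchanged if it kept its direction and stayed called. A value that was not called counted as unchanged if it stayed uncalled or if its sign flipped. The counts of member probe sets called that left the range of 1.5 times were small ones. In C57 noninfarct tissue at day 5 the count of 3 became 1 with no filter, 1 without the 2 libraries against their labels and 5 with the replicate number as a block. In MRL noninfarct tissue at day 1 the count of 2 became 1 after median centring. Between strains in noninfarct tissue at day 1 the count of 1 became 2 after median centring, 2 with an offset of 32, 2 with the replicate block and 3 without the 2 libraries. Without those libraries the strain comparisons of infarct tissue at days 1 and 5 and of noninfarct tissue at day 5 went from 0 to 1. The replicate block, where a number in common is all that the labels say the arrays share, changed no other count of members by more than 1.5 times.

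Leaving out 1 array at a time gave 6 to 14 calls in C57 infarct tissue at day 1 (10 with all arrays), 5 to 13 at day 5 (10) and 11 to 18 from day 1 to day 5 (19). In MRL it gave 6 to 10 (9), 11 to 23 (21) and 11 to 24 (16). In noninfarct tissue it gave 2 to 6 (6) and 1 to 10 (3) in C57 and 0 to 2 (2) and 2 to 4 (6) in MRL. Between strains it gave 0 to 2 and 0 to 1 in infarct tissue at days 1 and 5 (0 and 0), and 0 to 1, 0 to 3 and 0 to 1 in noninfarct tissue at days 0, 1 and 5 (1, 1 and 0). The cause of these shifts was not tested.

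Of single genes, the call of Psmb8 in MRL noninfarct tissue at day 5 was lost with no filter and with quantile normalization, and that of Psmd5 in MRL at day 5 under 4 alternatives in each region. Psmb9 lay below the array medians at day 0 and on most day 1 arrays, which limits its size.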

Other observations

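The summed intensity of the 3 tested neutrophil markers in infarct tissue at day 1 was 3095 to 4633 in C57 and 968 to 2943 in MRL, against 31.9 to 37.2 and 31.2 to 34.9 at day 0. In noninfarct tissue it was 180 to 699 in C57 and 71.9 to 452 in MRL at day 1. Genes of dividing cells were called higher at day 5 in both regions of both strains, 5 of 5 tested, and none at day 1. Their intensity summed over 5 probe sets was 34.8 to 48.2 in C57 and 34.1 to 39.8 in MRL infarct tissue at day 0. The array medians were 18.6 to 22.4, so these genes passed the filter mainly through the groups where they were high. Their counts are therefore given as a description. At day 5, 23.4% of all tested were higher in C57 and 23.6% in MRL infarct tissue, and 11.6% and 16% in noninfarct tissue. Without the 2 libraries against their labels it was 4 of 5 in C57 noninfarct tissue. Replicate 1 of that group had a summed intensity of 41.0, against 34.8 to 48.3 at day 0.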
